A study of Arabidopsis thaliana with 12 samples.

Results

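The transcripts described here are those of leaf 13 of Arabidopsis thaliana, a leaf that was itself undamaged, 1 h after the apical 40% of another leaf of the same rosette, leaf 8, had been wounded with forceps. The members were chosen by their labels: 3 arrays of leaf 13 from plants wounded on leaf 8, and 3 arrays of leaf 13 from unwounded plants, 6 of the 12 arrays in the series. All plants were Col-0 wild type, grown on soil for 5 weeks, 1 plant to a 7 cm pot, with 10 h of light at 100 µE, 70% humidity, 22 °C by day and 18 °C at night. The labels name no mutant, transgene or chemical in any group. For the unwounded plants they give no harvest time. The other 6 arrays were of leaf 8 itself. Of these, 3 were harvested 1 h after a current of 40 µA had been passed into its petiole for 10 s. The other 3 came from plants whose petiole carried a platinum wire without current. All 6 leaf 8 arrays served for comparison and also entered the fit that set the variance of each gene in the leaf 13 tests. The labels do not say whether the arrays of a group came from separate plants or from pools. The p-values thus reflect variation among the 12 arrays alone, and that variation may be technical.

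A wounded leaf signals to the rest of the rosette within minutes. Membrane depolarisations that depend on glutamate receptor-like channels travel along the vasculature, and leaves that share direct vascular connections with the damaged one receive the strongest signals. The receiving leaf then makes jasmonates, lipid-derived hormones whose active form releases transcription factors from repression, and it also carries calcium and redox changes of its own. The values below describe the response of such a leaf in genes on and off a list of jasmonate genes, including genes whose reference symbol is only a locus identifier. No group lacked jasmonate or was given it, so whether genes off that list respond through jasmonate was not tested.

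The deposited values were log2 signals of 22810 probe sets, of which 13513 were annotated to 1 gene, giving 13356 genes. Of these, 11751 are known in the reference by locus identifier alone and 1605 carry a gene symbol. Neither the files nor the reference give a product for the locus-only genes, so no role is stated unless a reference synonym names one. The list of jasmonate genes was set by locus and holds some of them, as is said where they appear. Correlations were taken across all 22810 probe sets, controls included. They were 0.995 to 0.996 between arrays of the same leaf 13 group and 0.965 to 0.977 between wounded and unwounded arrays, so every array was closer to its own group. The labelled tissue was checked on markers of leaf cell types. LHCB4.1, an antenna protein of photosystem II, had log2 signals of 12.94, 12.97 and 13.04 in wounded plants and 12.83, 12.88 and 12.89 in unwounded plants (difference 0.12 ± 0.08, 95% interval -0.05 to 0.29, adjusted p = 0.438). It gave bright signals on every array. None of the 3 measured mesophyll markers, 2 guard cell markers and 1 trichome marker passed the test. SWEET11, a sucrose exporter of phloem parenchyma and the 1 measured phloem marker, was lower, with a change of -0.48 ± 0.15 (log2, SE, adjusted p = 0.0477), a call lost when any 1 of the 6 arrays was left out or each array was centred on its median (adjusted p up to 0.155). In whole leaves, fewer cells of a type and less RNA per cell cannot be told apart. The difference between the 3′ and 5′ probe sets of the GAPDH control, a sign of RNA quality, was 1.27, 1.59 and 1.37 in wounded leaf 13 and 1.27, 1.18 and 1.39 in unwounded leaf 13, so the groups overlapped.

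The undamaged leaf changed broadly within 1 h. Of the 13356 genes tested, 1900 (14.2%) differed at an adjusted p of 0.05 in limma with Benjamini-Hochberg adjustment, and 3177 at an unadjusted p of 0.05. Of the 1900, 776 (5.81%) were higher and 1124 (8.42%) lower in wounded plants. Among changes of at least 2-fold the balance was the other way, with 336 genes (2.52%) raised and 189 (1.42%) lowered. The excess of rises grew with size: 119 genes rose and 16 fell at least 4-fold, 49 rose and 0 fell at least 8-fold, and 12 and 3 genes rose at least 16-fold and 32-fold. In the text, a change is a log2 fold change, wounded minus unwounded, with the standard error of the fit (n = 3 arrays in each group), and the genes named had wounded arrays that did not overlap the unwounded ones unless stated, as was so for 10.6% of all genes upward and 19.7% downward. For the 336 raised genes the median log2 signal was 7.07 in wounded and 5.12 in unwounded plants, and for the 189 lowered genes 5.01 in wounded and 6.53 in unwounded plants. Without any 1 array the count of called genes lay between 1405 and 1892. After each array was centred on its median, the split was 865 higher and 884 lower.

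**Figure D1:**
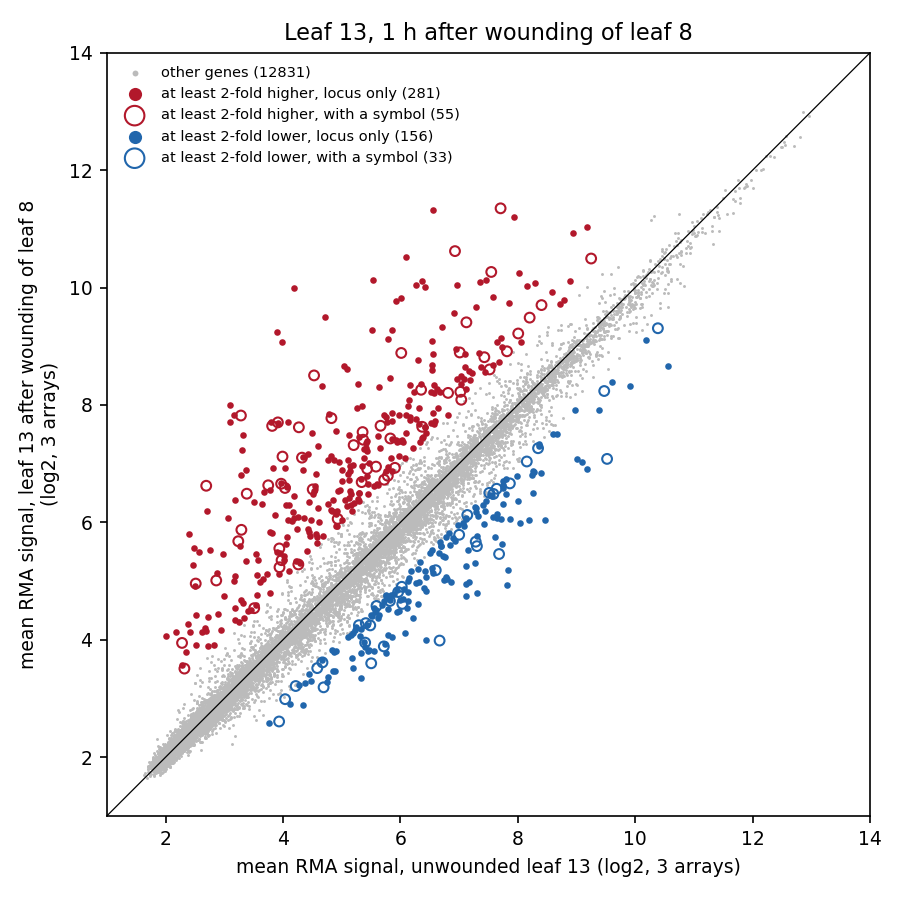
Mean log2 signal of each gene in leaf 13 of wounded plants (y axis) against unwounded plants (x axis), with 3 arrays a group, genes raised or lowered at least 2-fold at an adjusted p of 0.05 coloured, filled where known by locus alone and open where they have a symbol. The 336 raised genes spread far above the diagonal, up to a log2 change of 5.80, while the 189 lowered genes stay nearer to it, down to -2.87.

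The 3 wounded samples did not respond to the same extent. Relative to the unwounded mean, the 336 raised genes were displaced by a median of 1.50 in wounded replicate 1, 1.75 in wounded replicate 2 and 1.91 in wounded replicate 3. The 189 lowered genes were displaced by -1.07, -1.34 and -1.39 in the same order. Wounded replicate 1 was the least displaced of the 3 for 248 of the raised genes (73.8%) and 145 of the lowered genes (76.7%). Rises and falls were thus both smallest in the same sample. These displacements use the arrays that chose the genes and carry no test.

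Most genes called were known by locus alone, as were 11751 of the 13356 tested. Of the 11751, 657 were higher and 943 lower (13.6%), beside 14.2% of all genes. Of the genes with a symbol, 119 were higher and 181 lower (18.7%). The largest change among the genes tested was in a gene known by locus alone. AT5G05600 had log2 signals of 9.88, 10.13 and 9.96 in wounded plants against 4.74, 4.22 and 3.61 in unwounded plants, a rise of 5.80 ± 0.24 or 55.8-fold (adjusted p = 1.35e-09). This gene and AT2G38240 are on the jasmonate list. AT4G10390 read 8.86, 9.43 and 9.46 in wounded plants and 3.86, 4.03 and 3.81 in unwounded plants, a rise of 5.35 ± 0.28. AT2G38240 read 8.43, 9.35 and 9.44 in wounded plants and 3.98, 3.81 and 4.17 in unwounded plants, a rise of 5.09 ± 0.32. These 3 genes were the only ones called that rose at least 32-fold, and in each the gap between the groups was many times the standard error. AT2G30830 read 7.50, 7.86 and 8.66 against 3.05, 3.18 and 3.04 and rose by 4.92 ± 0.27. AT5G56980 read 9.32, 9.62 and 9.56 against 4.65, 4.80 and 4.72 and rose by 4.78 ± 0.20. AT3G51450 read 11.08, 11.34 and 11.55 against 6.83, 7.05 and 5.76 and rose by 4.77 ± 0.32. In each of these last 3 genes wounded replicate 1 was the lowest wounded array, though still far above the unwounded ones.

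The next locus-only rises were of like size. AT4G17470 rose by 4.66 ± 0.32, AT2G22880 by 4.61 ± 0.37 and AT4G36010 by 4.60 ± 0.31. For AT4G36010 the arrays read 9.68, 10.34 and 10.35 in wounded plants and 5.52, 5.25 and 5.81 in unwounded plants. AT1G61890 read 10.32, 10.66 and 10.58 in wounded plants and 6.25, 6.04 and 5.99 in unwounded plants, and rose by 4.43 ± 0.17 (adjusted p = 1.35e-09). AT4G02360 rose by 4.18 ± 0.25, AT1G06620 by 3.93 ± 0.26, AT1G25500 by 3.91 ± 0.28 and AT1G66760 by 3.85 ± 0.22. The remaining 6 of the 20 largest rises, AT4G08170, AT1G52720, AT1G14130, AT5G54170, AT2G34930 and AT1G75960, lay between 3.67 and 3.80. AT2G34930 read 8.90, 9.46 and 9.46 against 5.50, 5.60 and 5.46, with the 3 unwounded arrays closer together than the wounded ones. Each of the 20 rises kept its direction and its call in every alternative analysis that was run.

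**Figure D2:**
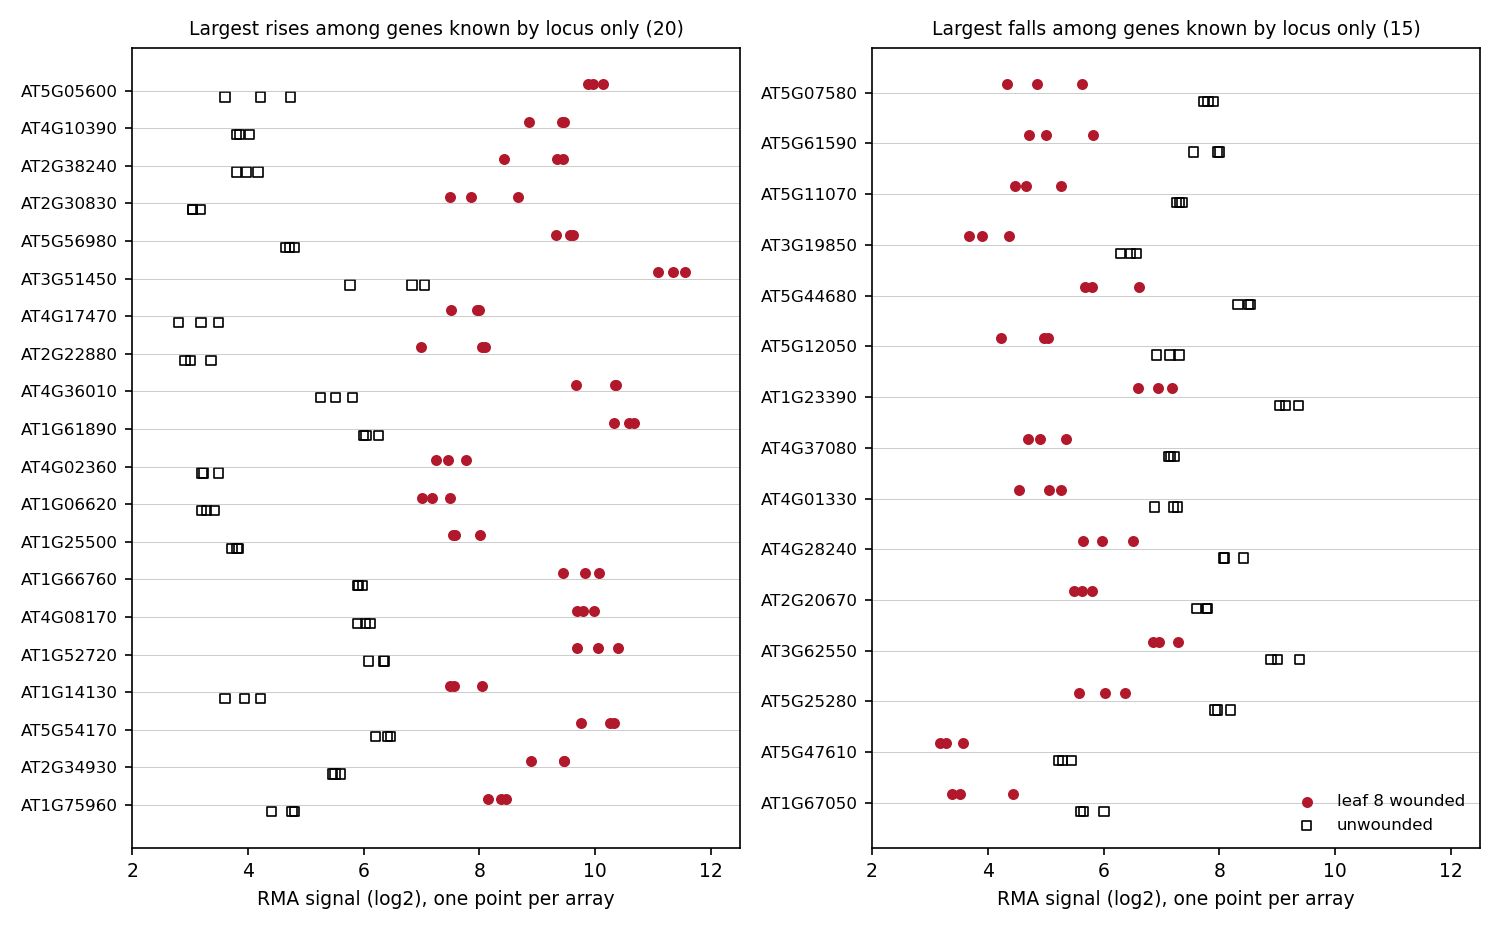
Log2 signals of the 20 largest rises (left) and 15 largest falls (right) among genes known by locus alone, with 1 point for each array and wounded above unwounded plants for every gene. The wounded and unwounded points do not overlap for any gene shown, and the gaps on the left (3.67 to 5.80) exceed those on the right (1.97 to 2.87).

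Among locus-only genes the largest falls were smaller than the largest rises, and their wounded and unwounded arrays did not overlap either. AT5G07580 read 5.63, 4.85 and 4.33 in wounded plants against 7.81, 7.90 and 7.73 in unwounded plants and fell by 2.87 ± 0.28 (adjusted p = 4e-06). AT5G61590, whose reference synonym DEWAX names a repressor of cuticular wax synthesis, read 5.82, 5.00 and 4.72 in wounded plants and 8.00, 7.96 and 7.56 in unwounded plants and fell by 2.66 ± 0.27. AT5G11070 read 5.27, 4.66 and 4.48 in wounded plants and 7.32, 7.36 and 7.26 in unwounded plants and fell by 2.51 ± 0.25. In all 3 the wounded arrays lay below every unwounded array, by at least 4-fold on average. AT3G19850 fell by 2.45 ± 0.18, AT5G44680 by 2.42 ± 0.26, AT5G12050 by 2.37 ± 0.30 and AT1G23390 by 2.28 ± 0.16. AT1G23390 had the smallest error of these 4, with 7.18, 6.95 and 6.59 in wounded plants against 9.14, 9.37 and 9.04 in unwounded plants. AT4G37080, AT4G01330, AT4G28240, AT2G20670, AT3G62550, AT5G25280, AT5G47610 and AT1G67050 fell by between 1.97 and 2.18. AT5G47610 read 3.57, 3.18 and 3.28 in wounded plants and 5.22, 5.29 and 5.45 in unwounded plants (adjusted p = 3.43e-06).

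Some raised genes had signals close to the lowest on the array in unwounded plants. Among rises of at least 2-fold, the 8 with the lowest unwounded mean were AT1G61610, AT3G28600, AT3G01830, AT2G32140, BSMT1, AT2G25460, AT5G44350 and B120. AT1G61610 read 5.31, 5.67 and 6.41 in wounded plants and 2.11, 2.77 and 2.31 in unwounded plants and rose by 3.40 ± 0.29. BSMT1, which methylates salicylate and benzoate to volatile esters, read 3.45, 3.77 and 4.62 in wounded plants and 2.28, 2.20 and 2.37 in unwounded plants and rose by 1.67 ± 0.22 (adjusted p = 6.51e-05). B120, a receptor kinase with a lectin domain, read 3.08, 3.80 and 3.65 in wounded plants and 2.38, 2.33 and 2.25 in unwounded plants and rose by 1.19 ± 0.20. The 8 genes had log2 signals near the lower end of the array's range in unwounded plants. No detection calls were used here, so which of them were above background in unwounded plants was not tested.

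Others changed from an already bright signal. AT2G32150 read 11.02, 11.38 and 11.20 in wounded plants and 7.83, 8.28 and 7.70 in unwounded plants and rose by 3.26 ± 0.19. AT1G73480 rose by 1.99 ± 0.19, AT2G43550 by 1.85 ± 0.17, AT2G46100 by 1.34 ± 0.10 and AT5G19240 by 1.22 ± 0.15. MSRB6, a methionine sulfoxide reductase that repairs oxidised protein, read 10.26, 10.58 and 10.64 in wounded plants and 9.41, 9.27 and 9.07 in unwounded plants and rose by 1.24 ± 0.27 (adjusted p = 0.00459). On the falling side, AT1G56220 read 8.98, 8.62 and 8.42 in wounded plants and 10.52, 10.73 and 10.43 in unwounded plants and fell by 1.89 ± 0.14. AT5G16030 fell by 1.58 ± 0.20, AT5G55620 by 1.46 ± 0.19, AT3G60320 by 1.21 ± 0.17 and AT4G33666 by 1.08 ± 0.09. CCL fell by 1.08 ± 0.13, AT1G13650 by 1.07 ± 0.16, and AT3G56360 rose by 1.01 ± 0.13. Of the 336 raised genes 18, and of the 189 lowered genes 0, had an unwounded mean in the lowest 25% of all genes.

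Several raised genes lay next to each other in the genome. Of 5814 pairs of neighbouring genes that were both tested, 16 had both genes raised at least 2-fold, 2 had both lowered, and 0 had 1 raised and 1 lowered. Of the 319 tested neighbours of raised genes, 32 (10.0%) were raised themselves, beside 2.52% of all genes, and of the 178 tested neighbours of lowered genes, 4 (2.25%) were lowered, beside 1.42% of all genes. These shares are descriptions without a test, and each gene of a pair was read by its own probe set. The pairs named next were picked after their values were seen. 4CL8, a member of the 4-coumarate-CoA ligase family, rose by 4.54 and its neighbour AT5G38130 by 3.53. AT3G51440 rose by 2.27 beside AT3G51450 at 4.77, and AT2G32140 by 1.89 beside AT2G32150 at 3.26. The U-box gene PUB43 rose by 2.95 beside AT1G76380 at 3.06. CML38, a calmodulin-like calcium sensor, rose by 3.11 beside AT1G76640 at 2.80, whose reference synonym CML39 names another sensor of this kind. AT1G76580, AT1G76590 and AT1G76600 formed a run of 3, at 2.17, 2.04 and 1.87. The neighbours lowered together were SWEET2 with AT3G14760, at -1.42 and -1.26, and AT1G21050 with AT1G21060, at -1.10 and -1.09. Nearby copies of a gene can share probes on such arrays, and whether the probe sets of these pairs cross-hybridise was not tested.

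Among genes with a symbol the largest rises spanned enzymes, regulators and cell wall proteins. 4CL8 read 7.71, 7.92 and 7.83 in wounded plants and 3.18, 3.20 and 3.46 in unwounded plants (adjusted p = 1.35e-09). GRX480, a glutaredoxin that acts with TGA transcription factors, read 8.08, 8.61 and 8.82 in wounded plants and 4.89, 4.36 and 4.34 in unwounded plants and rose by 3.97 ± 0.33. STZ, a zinc finger repressor induced by many stresses, read 7.25, 7.70 and 7.98 in wounded plants and 4.41, 3.70 and 3.34 in unwounded plants and rose by 3.83 ± 0.26. IRX15-L, which is needed for normal xylan in secondary walls, read 7.45, 7.74 and 7.92 in wounded plants and 3.94, 3.92 and 3.88 in unwounded plants and rose by 3.79 ± 0.20. In all 4 the lowest wounded array lay far above the highest unwounded one. JRG21, whose change lay between those of GRX480 and STZ, rose by 3.93 (adjusted p = 4.56e-06). The core list of jasmonate genes holds 19 loci, of which 9 were measured. Of these 9, 8 were higher, AT5G05600 and AT2G38240 included, beside 5.81% of all genes. Among them were OPCL1, a peroxisomal ligase of jasmonate synthesis (3.64 ± 0.19), and JMT, which makes methyl jasmonate (3.13 ± 0.15). The MYC4 transcription factor had 5.10, 4.41 and 4.95 in wounded plants and 5.13, 4.99 and 5.17 in unwounded plants (adjusted p = 0.532).

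**Figure D3:**
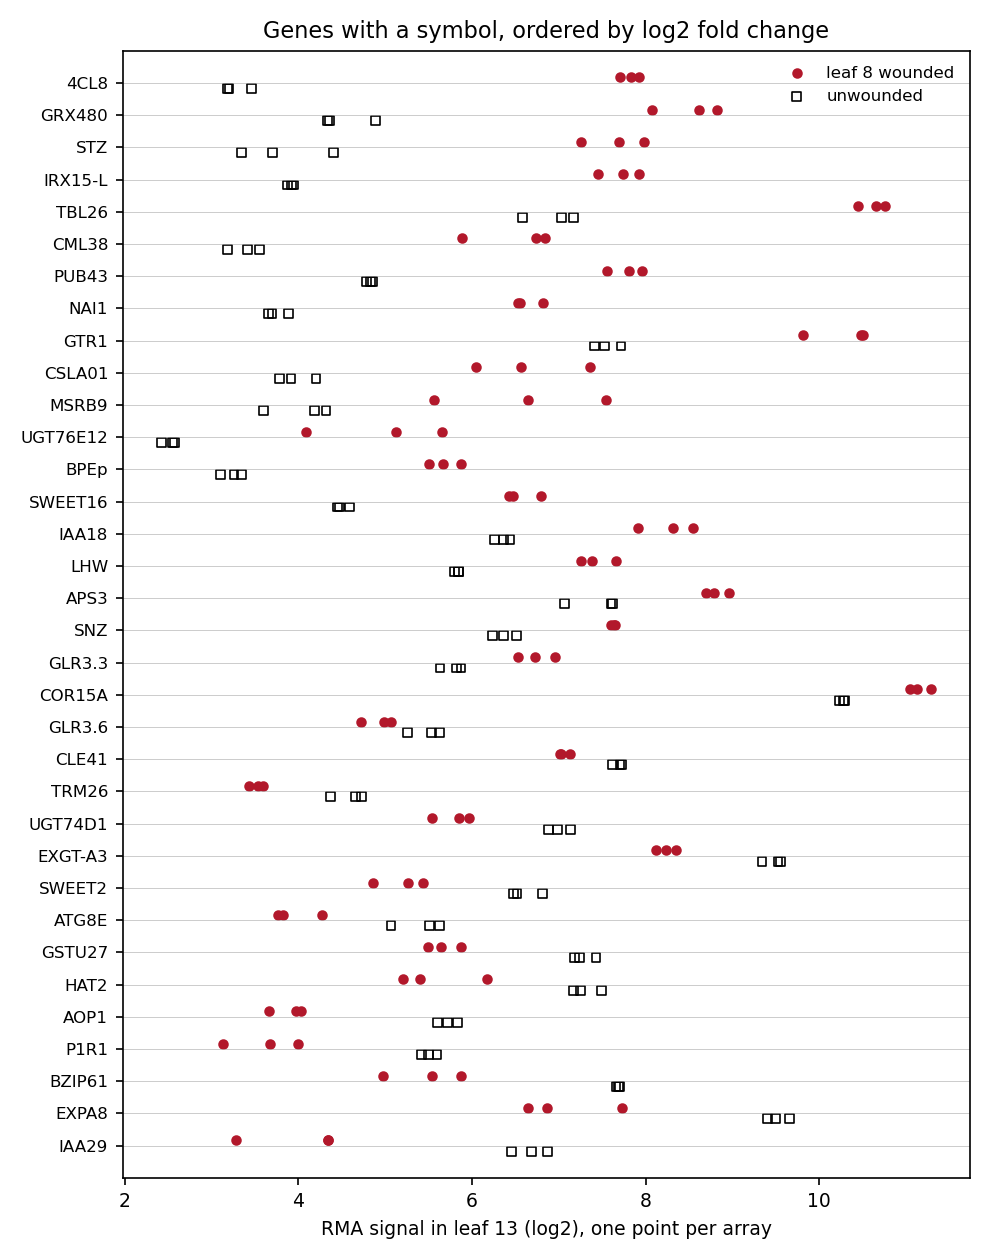
Log2 signals on each leaf 13 array for 34 selected genes with a symbol, wounded (circles) above unwounded plants (squares), ordered by change. The points of the groups do not overlap for any gene shown, from 4CL8 at the largest rise to IAA29 at the largest fall.

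UDP-glycosyltransferases, enzymes that attach sugars to hormones and secondary metabolites, changed in both directions. Of 47 measured UGT genes 9 were higher and 10 lower, with a median change of 0.03, beside 5.81% and 8.42% of all genes. UGT76E12 read 4.09, 5.12 and 5.66 in wounded plants and 2.42, 2.57 and 2.55 in unwounded plants and rose by 2.44 ± 0.26, with wounded replicate 1 the lowest of its group. UGT76E11 rose by 0.95 ± 0.12 and UGT76E1, which acts on hydroxylated jasmonate, by 0.86 ± 0.13. UGT74B1, an enzyme of the core glucosinolate pathway, read 9.56, 9.50 and 9.40 in wounded plants and 8.22, 8.41 and 7.98 in unwounded plants and rose by 1.29 ± 0.13. UGT78D1, a flavonol rhamnosyltransferase, rose by 1.20 ± 0.13 and UGT71B1 by 1.01 ± 0.12. Those that fell included enzymes that glucosylate growth hormones. UGT74D1, which acts on auxins, read 5.97, 5.54 and 5.85 in wounded plants and 6.99, 6.88 and 7.13 in unwounded plants and fell by 1.21 ± 0.20. The cytokinin N-glucosyltransferases UGT76C1 and UGT76C2 fell by 0.51 ± 0.12 and 0.74 ± 0.11, and UGT85A5 and UGT88A1 by 1.16 ± 0.12 and 0.77 ± 0.11. Both counts stayed within 1.5 times of these in every alternative.

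Cytochromes P450 are oxygenases of secondary metabolism and hormone synthesis. Of 26 measured genes with a CYP symbol, 24 of them listed as cytochromes P450, 2 were higher and 7 lower. Over all genes the shares were 5.81% and 8.42%. The 2 and the 7 were all among the 24. CYP84A4 rose by 1.02 ± 0.14. CYP71B29 read 4.42, 4.14 and 4.18 in wounded plants and 5.42, 5.51 and 5.53 in unwounded plants and fell by 1.24 ± 0.12. CYP71B24 fell by 1.05 ± 0.21 and CYP71B26 by 0.75 ± 0.17. The count of 7 was 3 without unwounded replicate 2 or wounded replicate 2, and 4 without unwounded replicate 3, without wounded replicate 3 or after quantile normalization, while the 3 genes named kept their calls. Other enzymes of specialised metabolism moved as well. CCR2, a cinnamoyl-CoA reductase of the lignin branch, rose by 2.15 ± 0.30, and AOP1, from a locus of glucosinolate side-chain genes, fell by 1.83 ± 0.16.

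Cell wall genes changed in both directions. Of 22 TBL genes, whose known members add acetyl groups to wall polysaccharides, 3 were higher and 4 lower, beside 5.81% and 8.42% of all genes. TBL26 read 10.65, 10.45 and 10.76 in wounded plants and 7.03, 7.17 and 6.59 in unwounded plants and rose by 3.69 ± 0.22, a 12.9-fold change. TBL37 rose by 2.04 ± 0.18, while TBL25 read 7.20, 7.05 and 6.86 in wounded plants and 8.12, 8.20 and 8.15 in unwounded plants and fell by 1.12 ± 0.12. CSLA01, of the family that makes glucomannan backbones, averaged 6.66 ± 0.66 in wounded plants and 3.97 ± 0.21 in unwounded plants (SD, n = 3 each) and rose by 2.69 ± 0.25, whereas CSLA03 of the same family fell by 0.78 ± 0.17. CSLD2 rose by 0.76 ± 0.13. The pectin genes ATPMEPCRB, a pectin methylesterase, and GAUT15, of the galacturonosyltransferase family, rose by 1.62 ± 0.22 and 1.00 ± 0.14.

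Proteins that loosen the wall were also split. Of 30 measured expansins and xyloglucan enzymes 4 were higher and 4 lower, beside 5.81% and 8.42% of all genes. The higher count was 2 without unwounded replicate 1 and 1 without unwounded replicate 3 or wounded replicate 3. EXPA8, an expansin, read 7.73, 6.87 and 6.64 in wounded plants and 9.50, 9.66 and 9.41 in unwounded plants and fell by 2.44 ± 0.33, the second largest fall among genes with a symbol. EXPB1 fell by 1.20 ± 0.19. EXGT-A3, a xyloglucan endotransglucosylase, read 8.12, 8.35 and 8.24 in wounded plants and 9.55, 9.52 and 9.34 in unwounded plants and fell by 1.23 ± 0.13. Against these, the expansin EXPA16 read 6.69, 7.05 and 7.10 in wounded plants and 5.53, 5.29 and 5.93 in unwounded plants and rose by 1.36 ± 0.15. Expansins thus changed in both directions in the same leaf.

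U-box ubiquitin ligases, which tag proteins for degradation and include regulators of immunity, were among the raised genes. Of 9 measured PUB genes 3 were higher and 0 lower, beside 5.81% and 8.42% of all genes, and no further member passed an unadjusted p of 0.05. PUB43 read 7.56, 7.81 and 7.96 in wounded plants and 4.86, 4.83 and 4.79 in unwounded plants. PUB19 read 6.33, 7.30 and 7.69 in wounded plants and 4.52, 4.22 and 4.23 in unwounded plants and rose by 2.78 ± 0.41, again with wounded replicate 1 lowest. PUB24, a known negative regulator of immune signalling, rose by 1.29 ± 0.23. Of 10 autophagy genes measured, 9 of them for ATG8 proteins, 0 were higher and 4 lower, or 2 lower without unwounded replicate 2 or wounded replicate 2, beside 8.42% of all genes lower. At an unadjusted p of 0.05, 8 of the 10 passed in either direction. ATG8E, a ubiquitin-like protein of the autophagosome membrane, read 3.76, 4.27 and 3.82 in wounded plants and 5.51, 5.63 and 5.07 in unwounded plants and fell by 1.45 ± 0.16. ATG8F fell by 0.60 ± 0.13. GAMMA-VPE, a vacuolar processing enzyme, fell by 0.66 ± 0.15.

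Transporter genes changed along with the enzymes. GTR1 and GTR2, which load glucosinolates into the phloem, both rose. GTR1 read 9.81, 10.48 and 10.51 in wounded plants and 7.41, 7.72 and 7.52 in unwounded plants and rose by 2.72 ± 0.21, and GTR2 rose by 1.39 ± 0.14. Of 14 SWEET sugar transporters 2 were higher and 3 lower, beside 5.81% and 8.42% of all genes. The lower ones included SWEET11, whose call was lost without any 1 array. SWEET16, a vacuolar carrier, read 6.47, 6.79 and 6.42 in wounded plants and 4.59, 4.48 and 4.45 in unwounded plants and rose by 2.06 ± 0.18, and SWEET4 rose by 1.13 ± 0.15. SWEET2, also vacuolar, read 5.43, 5.26 and 4.85 in wounded plants and 6.81, 6.52 and 6.47 in unwounded plants and fell by 1.42 ± 0.18. SWEET13, a sucrose exporter, fell by 0.92 ± 0.16. Within sugar metabolism, ATSPS4F, a sucrose-phosphate synthase, fell by 0.92 ± 0.20 and AKINBETA1, a beta subunit of the energy sensor kinase SnRK1, by 1.01 ± 0.14.

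Calcium and channel genes included both members of the pair known to carry the leaf-to-leaf signal, GLR3.3 and GLR3.6. Of 8 measured GLR genes 1 was higher and 2 lower, beside 5.81% and 8.42% of all genes. Without 1 leaf 13 array the lower count fell to as few as 0. GLR3.3 read 6.53, 6.72 and 6.96 in wounded plants and 5.63, 5.82 and 5.87 in unwounded plants and rose by 0.96 ± 0.14 (adjusted p = 2.03e-04). GLR3.6 read 4.72, 4.99 and 5.07 in wounded plants and 5.26, 5.54 and 5.63 in unwounded plants and was lower by 0.55 ± 0.14 (adjusted p = 0.0147). The call of GLR3.6 was lost without unwounded replicate 2, unwounded replicate 3 or wounded replicate 1 (adjusted p 0.0609 to 0.0743), and that of GLR3.3 was kept throughout. CML38 read 5.89, 6.73 and 6.84 in wounded plants and 3.55, 3.41 and 3.18 in unwounded plants, a rise of 3.11 ± 0.29. Of 7 measured genes with a CML symbol 1 was higher and 1 lower, beside 5.81% and 8.42% of all genes. IQD proteins bind calmodulin at the cytoskeleton, and of 15 measured 3 were higher and 4 lower, or 2 lower without unwounded replicate 2, beside 5.81% and 8.42% of all genes. IQD22 rose by 1.02 ± 0.19 and IQD24 fell by 1.10 ± 0.12.

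Transcription factors with a symbol were found among both the largest rises and the largest falls. NAI1, the basic helix-loop-helix factor that directs the formation of ER bodies, stores of defensive beta-glucosidases, read 6.52, 6.82 and 6.55 in wounded plants and 3.66, 3.70 and 3.89 in unwounded plants and rose by 2.88 ± 0.19. NAI2, a structural component of the same bodies, rose by 0.74 ± 0.14. BPEp, a factor that limits petal growth, read 5.50, 5.87 and 5.67 in wounded plants and 3.26, 3.35 and 3.11 in unwounded plants and rose by 2.44 ± 0.14. LHW, which acts in vascular patterning, rose by 1.60 ± 0.15 and SNZ, an AP2-type repressor of flowering, by 1.26 ± 0.13. Of the factors that fell, HAT2, a homeodomain-leucine zipper protein responsive to auxin and shade, read 6.17, 5.40 and 5.21 in wounded plants and 7.25, 7.49 and 7.17 in unwounded plants and fell by 1.71 ± 0.22. GT2, a trihelix protein, fell by 1.42 ± 0.14, MYBC1 by 1.15 ± 0.16, GIS, a zinc finger protein of trichome initiation, by 1.02 ± 0.14, and TCP15 by 0.73 ± 0.15. BZIP61 was lower by 2.22 ± 0.49, with an adjusted p of 0.0052 that was 0.0503 when the variance was modelled with a trend and robustly. Of 7 WRKY factors 0 passed limma's adjusted threshold in either direction, beside 5.81% higher and 8.42% lower among all genes. At an unadjusted p of 0.05, 3 of the 7 passed, beside 3177 of all 13356 genes.

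Growth and hormone genes other than those of jasmonate also changed. IAA29, an auxin-induced repressor, had the largest fall among genes with a symbol. It read 4.34, 4.34 and 3.28 in wounded plants and 6.46, 6.86 and 6.68 in unwounded plants, a fall of 2.68 ± 0.33 with wounded replicate 3 the lowest array. GH3.9, of the family that conjugates auxin to amino acids, read 4.28, 4.39 and 4.18 in wounded plants and 5.28, 5.56 and 5.40 in unwounded plants and fell by 1.13 ± 0.12. IAA18, another Aux/IAA repressor, went the other way, with 7.92, 8.31 and 8.55 in wounded plants and 6.44, 6.36 and 6.26 in unwounded plants, and the other 5 Aux/IAA genes measured did not pass, nor did 3 further GH3 genes. BRH1, a RING protein repressed by brassinosteroids, fell by 1.07 ± 0.16, whereas BIM1, a brassinosteroid-pathway factor, rose by 1.05 ± 0.15 and GID1B, a gibberellin receptor, by 1.03 ± 0.15. CLE41, the secreted peptide that maintains vascular stem cells, read 7.13, 7.02 and 7.02 in wounded plants and 7.73, 7.62 and 7.70 in unwounded plants and fell by 0.63 ± 0.10.

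The TRM genes that passed the test were all lower. Of 15 genes with this prefix, 14 of them encoding TON1-recruiting proteins that organise cortical microtubules and cell shape, 0 were higher and 7 lower, beside 5.81% and 8.42% of all genes, with a median change of -0.32 beside -0.03 over all genes. At an unadjusted p of 0.05, 8 of the 15 passed. TRM26 read 3.59, 3.53 and 3.43 in wounded plants and 4.66, 4.37 and 4.73 in unwounded plants and fell by 1.07 ± 0.18. TRM19 fell by 1.05 ± 0.19, TRM25 by 1.00 ± 0.20, TRM22 by 0.90 ± 0.12 and TRM24 by 0.82 ± 0.12. Several of these have dim signals, and removing the dimmest 25% of genes left 4 lower. No single array moved the count by over 1.5 times.

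Several redox and primary metabolism genes were among the largest changes of genes with a symbol. MSRB9, like MSRB6 a methionine sulfoxide reductase, averaged 6.59 ± 0.99 in wounded plants and 4.03 ± 0.38 in unwounded plants (SD, n = 3 each) and rose by 2.55 ± 0.38. ATMDAR2, which regenerates ascorbate, rose by 1.10 ± 0.15. APS3, the ATP sulfurylase that activates sulfate, read 8.95, 8.79 and 8.69 in wounded plants and 7.60, 7.62 and 7.07 in unwounded plants and rose by 1.38 ± 0.14. NDB2, an alternative NAD(P)H dehydrogenase of mitochondria, rose by 1.48 ± 0.15, PDC2, a pyruvate decarboxylase, by 1.09 ± 0.18, and HEMA2, a glutamyl-tRNA reductase of tetrapyrrole synthesis, by 1.35 ± 0.16. GSTU27, a glutathione transferase, read 5.87, 5.65 and 5.50 in wounded plants and 7.24, 7.43 and 7.18 in unwounded plants and fell by 1.61 ± 0.15. ALN, the allantoinase of purine breakdown, fell by 1.12 ± 0.20.

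Of 11 measured genes of abscisic acid response and dehydration 4 were higher and 0 lower, beside 5.81% and 8.42% of all genes. COR15A, which protects chloroplast membranes in the cold, read 11.13, 11.04 and 11.29 in wounded plants and 10.29, 10.24 and 10.28 in unwounded plants and rose by 0.88 ± 0.11. The dehydrin COR47 rose by 0.84 ± 0.10 and LEA4-5 by 0.76 ± 0.17. LTI30, a dehydrin outside that list, read 7.29, 7.54 and 7.79 in wounded plants and 5.48, 5.36 and 5.22 in unwounded plants and rose by 2.18 ± 0.20. Of 5 measured lectins 3 were higher, beside 5.81% of all genes. JAL23, a jacalin-type lectin, read 5.83, 5.56 and 6.22 in wounded plants and 3.61, 3.49 and 2.77 in unwounded plants and rose by 2.58 ± 0.37, JAL34 rose by 1.38 ± 0.32 and EULS3 by 0.84 ± 0.18. BIK1, a cytoplasmic kinase that relays pattern recognition, rose by 0.84 ± 0.18 and SD1-29, an S-domain receptor kinase, by 0.91 ± 0.14.

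Other families had called members that were few in number, to be read beside 5.81% of all genes higher and 8.42% lower. Of 29 serine carboxypeptidase-like SCPL genes 0 were higher and 2 lower (6.90%). Of 20 beta-glucosidase BGLU genes 0 passed in either direction, with 3 at an unadjusted p of 0.05. Of 15 tetraspanin TET genes 0 were higher and 2 lower (13.3%). Whether these shares differ from those of all genes was not tested. The medians of these families lay between -0.05 and 0.03, beside -0.03 over all genes. A gene that missed the threshold is not thereby shown to be unchanged.

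**Figure D4:**
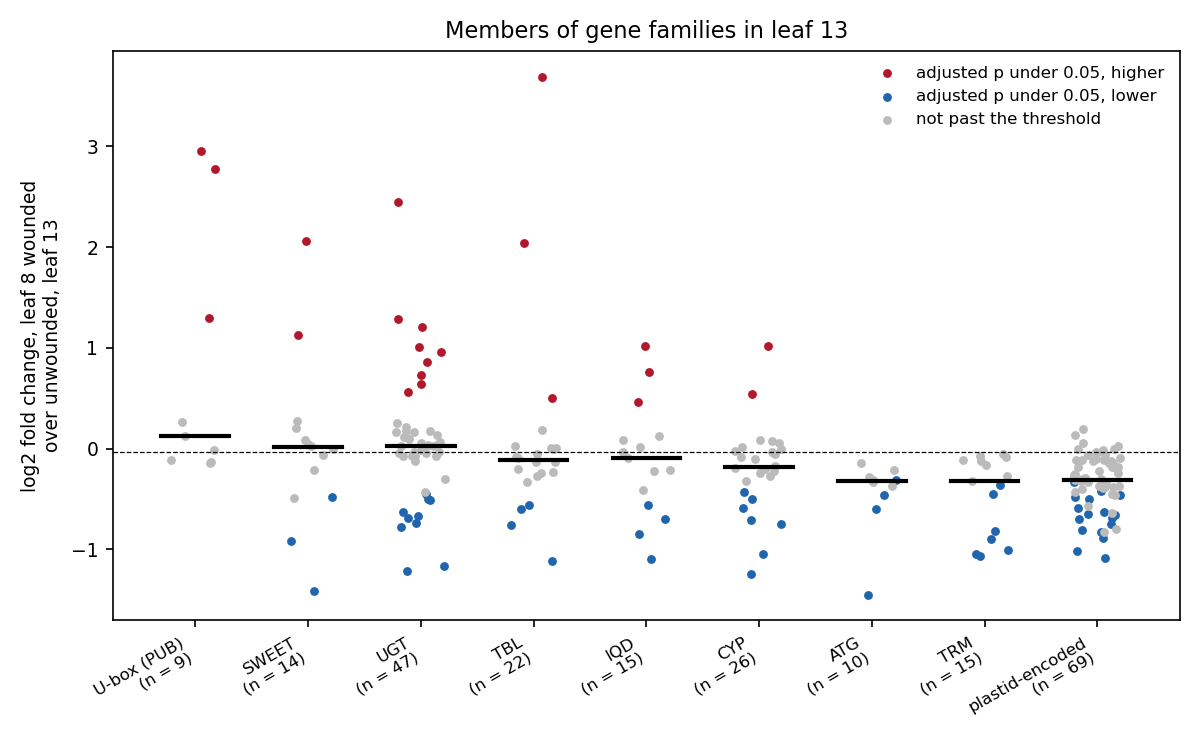
Log2 change, wounded minus unwounded leaf 13, of each measured member of the PUB, SWEET, UGT, TBL, IQD, CYP, ATG, TRM and plastid-encoded families. Members past the threshold are in red (higher) or blue (lower) and the rest in grey. The median is a bar and the median of all genes a dashed line. UGT and TBL members lie on both sides of 0, PUB members that passed lie above it, and TRM, ATG and plastid-encoded members that passed lie below it.

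Genes encoded in the plastid genome sat slightly lower as a group. Of 69 measured 0 were higher and 17 lower (24.6%, beside 8.42% of all genes) by limma's adjusted p, and 26 passed an unadjusted p of 0.05. The median change was -0.31. The median log2 signal of the 69 genes was 8.39, 8.41 and 7.88 on the wounded arrays and 8.69, 8.79 and 8.63 on the unwounded arrays, so the groups did not overlap but wounded replicate 3 lay apart from the others. The count rests on few arrays: it was 4 without wounded replicate 3, 5 without unwounded replicate 1 and 8 without unwounded replicate 2. Of the members that kept their call throughout, ndhJ, a subunit of the chloroplast NDH complex, read 7.51, 7.31 and 6.98 in wounded plants and 8.42, 8.44 and 8.18 in unwounded plants and fell by 1.08 ± 0.22. The large subunit of Rubisco, rbcL, read 8.46, 8.49 and 8.13 in wounded plants and 9.03, 9.01 and 8.92 in unwounded plants and fell by 0.63 ± 0.12, and the protease subunit clpP and the cytochrome assembly protein ccsA fell by 0.65 ± 0.14 and 0.82 ± 0.17. The GAPDH 3′ minus 5′ differences given above overlapped between the groups, and the part of RNA quality in this shift was not tested.

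The response of leaf 13 was then set against that of leaf 8 after a current, an experiment that shares no arrays with it. It differs in leaf, in stimulus and in harvest of the treated leaf itself, so these cannot be told apart. The GAPDH 3′ minus 5′ difference was 2.03 to 2.45 on the leaf 8 arrays, above all 6 leaf 13 arrays, and its part in the comparison was not tested. After the current 318 genes (2.38%) were higher and 211 (1.58%) lower. Of the 336 genes raised in leaf 13 by wounding, 212 (63.1%) were also higher after the current and 0 lower, and of the 189 lowered genes 43 (22.8%) were also lower and 0 higher. The raised genes had a median change of 1.72 after wounding and 0.80 after the current, and the lowered genes -1.24 after wounding and -0.39 after the current. A test of the difference between the responses called 381 genes (2.85%). Among the raised genes 153 (45.5%, beside 1.52% of all genes) had a larger rise after wounding and 0 a larger rise after the current, and among the lowered genes 101 (53.4%, beside 1.33%) had a larger fall after wounding. Since the genes were picked on the wound response, these shares favour wounding by construction. Without wounded replicate 3 they were 101 and 70 genes.

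Single genes showed how far the experiments parted. AT4G36010 changed by 4.60 ± 0.31 after wounding and 1.14 ± 0.31 after the current, a difference of 3.46 ± 0.44 (adjusted p = 8.8e-04). PUB43 changed by 2.95 ± 0.16 after wounding and 1.07 ± 0.16 after the current (adjusted p of the difference = 6.26e-04). UGT76E12 changed by 2.44 ± 0.26 after wounding and 0.28 ± 0.26 after the current (adjusted p of the difference = 0.00487). These 3 genes responded more in the undamaged leaf 13. COR15A changed by 0.88 ± 0.11 after wounding and -0.32 ± 0.11 after the current, and COR47 by 0.84 ± 0.10 and -0.38 ± 0.10, both with a difference past the threshold (adjusted p = 0.00108 and 6.81e-04). SWEET2 changed by -1.42 ± 0.18 after wounding and 0.35 ± 0.18 after the current, and EXGT-A3 by -1.23 ± 0.13 and 0.24 ± 0.13, again with differences past the threshold (adjusted p = 0.00147 and 6.81e-04). TBL26 and MSRB6, on the other hand, changed by 3.69 ± 0.22 and 1.24 ± 0.27 after wounding and 2.74 ± 0.22 and 1.83 ± 0.27 after the current, and their differences did not pass (adjusted p = 0.162 and 0.641). For MSRB6 the difference was -0.59 ± 0.38, with a standard error that leaves its sign unsettled.

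**Figure D5:**
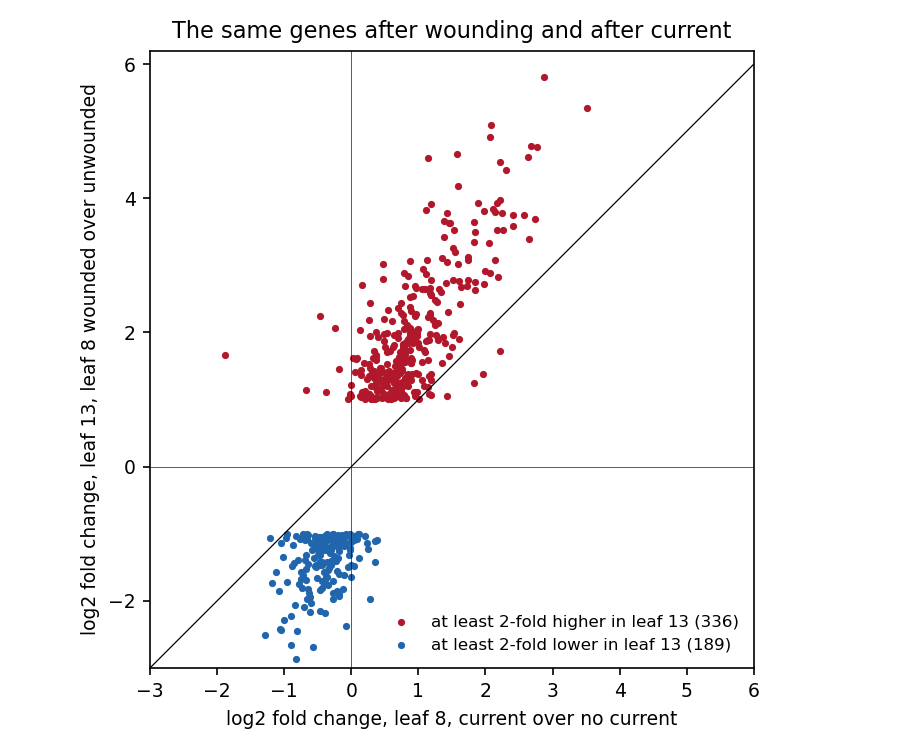
Log2 change in leaf 13 after wounding of leaf 8 (y axis) against the change in leaf 8 after the current (x axis) for the 336 raised (red) and 189 lowered (blue) genes. Most raised genes lie above the line of equal change and most lowered genes below it, with medians of 1.72 and 0.80 for the raised genes and -1.24 and -0.39 for the lowered genes, wounding given before current.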

How the data were processed

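RNA of leaf 13 and leaf 8 was hybridised to Affymetrix ATH1 arrays, 1 array a sample and 3 a group. The deposited values are log2 signals for each probe set, which the authors made with Affymetrix Power Tools and RMA. Both names come from the submitters' processing notes. Versions are not given in the sources used here. The log base is not stated in words and was taken as 2 from RMA and from the range of 1.46 to 13.3. Values were not normalized again. The 64 control probe sets, 503 annotated to several genes and 8730 left without a gene name were not tested, and probe sets of a gene were averaged (146 genes had several). Names came from the platform annotation, updated through the TAIR10.1 reference table, which held 13286 of the 13356 genes.

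limma 3.58.1 in R 4.3.3 was fitted with 1 mean a group over all 12 arrays (8 residual and 6.31 prior degrees of freedom), with two-sided tests, Benjamini-Hochberg adjustment over 13356 genes and a threshold of 0.05. The step was tested on simulated data. Exact permutation of 3 against 3 arrays cannot go below 0.1, so single genes rest on limma. The number of arrays limits the precision, with a median standard error of 0.113. Alternatives changed the arrays in the fit, normalization, variance model, array weights, filters on dim genes, probe set summary and replicates.

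Genes were named by rule, among called genes without overlap between groups: the 25 largest rises and 15 falls, the 20 rises and 15 falls among locus-only genes, the 8 brightest in each direction and 8 dimmest rises of at least 2-fold, up to 4 rises, 4 falls and 2 others of each gene list, and GLR3.3 and GLR3.6. Families of at least 5 genes sharing a symbol prefix, and the 80 largest rises and falls with a symbol, were added after the values were seen. The members and lists were chosen with earlier results of these data known. Of 70 lists 53 had a measured member. Lists searched by protein signature and promoter motifs were not analysed here. Same-numbered wounded and unwounded arrays did not deviate together (r of -0.02, -0.05 and 0.03), so numbers were not used as pairs.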

Additional observations from a re-analysis of the deposited data

How the results depend on the processing

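Of the 166 genes named as changed, JRG21 left aside, 163 kept their direction and their side of the threshold in every alternative that gave them a value. GLR3.6, BZIP61 and SWEET11 lost their call in those given beside them, with 0 reversals. JRG21 kept its direction and its call in the 14 alternatives that gave it a value. Without any 1 leaf 13 array 1405 to 1892 genes were called, 620 to 780 higher and 754 to 1112 lower, with 309 to 373 raised and 162 to 227 lowered at least 2-fold. The test of the difference from the current called 227 to 469 genes without any 1 of the 12 arrays. Testing every probe set on its own, which adds the unnamed ones, called 3713 probe sets, 1598 higher and 2115 lower, with 754 and 400 at least 2-fold. A replicate block on the leaf 13 arrays called 2015 genes, and one on all 12 arrays called 394 for the difference. In that replicate block 26 plastid-encoded genes were lower (family plastid-encoded: members lower).

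Signal limits what can be called: 0.539% of the dimmest 25% of genes passed, beside 22.6% of the brightest 25%. Only 14.6% of the reference genes with a symbol were tested here, beside 63.1% of those known by locus alone, so families are incomplete and their counts hold for the measured members only.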
